A study of Mus musculus with 18 samples.

Results

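Desmosomes are the junctions that tie the keratin filaments of neighbouring epithelial cells together, and 10 genes for their building blocks are described here in the skin and pituitary of knockout and wild-type mice. The 10 were chosen by symbol from 19505 genes with a named probe set: the desmoglein genes Dsg1a, Dsg1b, Dsg1c, Dsg2 and Dsg3, the desmocollin genes Dsc1, Dsc2 and Dsc3, the desmoplakin gene Dsp and the plakophilin gene Pkp1. Each has 1 probe set, so all 10 entered every test. RNA was measured on 18 Clariom S arrays, which read most mouse genes with a single probe set. The 6 groups of 3 arrays were skin of mice without the long noncoding RNA MIR205HG (lncKO below), skin of mice deficient in miR-205, a microRNA made from that transcript (miR-205 KO below), wild-type skin, and pituitary of the same 3 genotypes. All mice are labelled as untreated C57BL/6 females of 5 to 6 weeks. How the alleles were made is not named in the labels, nor is it stated that each sample is a different mouse, and p-values therefore cover only sample-to-sample spread, possibly technical. Samples are named by group and by their label number, with 1 to 9 for skin and 10 to 18 for pituitary.

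A desmosome is built in layers. Desmogleins and desmocollins are cadherins that span the membrane and bind their counterparts on the next cell. Inside the cell their tails hold plakoglobin and plakophilins, and desmoplakin links these to keratin filaments. In the epidermis Dsg3, Dsc2 and Dsc3 are known mainly from the lower layers and Dsg1 and Dsc1 from the upper layers, and mice carry several closely related Dsg1 genes. Simple and glandular epithelia use mainly Dsg2 and Dsc2. MIR205HG is the host transcript of miR-205, a microRNA that is abundant in stratified epithelia.

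The RNA deleted in miR-205 KO mice is shown first, because it is the only product of the locus with a known targeting sequence. Both mature strands come from RefSeq on GRCm38.p6, are written 5′ to 3′, and have bases 2 to 8, the seed, in capitals. The 5p strand lies at chr1:193507503-193507524 and the 3p strand at chr1:193507467-193507488, both on the minus strand.
mmu-miR-205-5p: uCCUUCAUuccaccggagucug
mmu-miR-205-3p: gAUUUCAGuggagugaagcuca
The strands have different seeds. No probe set named here measures MIR205HG or miR-205, and genotypes are taken from the labels.

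Dsp is the member that was called in pituitary, and it is the 1 member with an entry in the RefSeq promoter table. The 250 bases before its start are chr13:38151044-38151293 on the plus strand of GRCm38.p6. Capitals mark GGGCGG on either strand, the core of the GC box that Sp-family factors bind.
Dsp promoter: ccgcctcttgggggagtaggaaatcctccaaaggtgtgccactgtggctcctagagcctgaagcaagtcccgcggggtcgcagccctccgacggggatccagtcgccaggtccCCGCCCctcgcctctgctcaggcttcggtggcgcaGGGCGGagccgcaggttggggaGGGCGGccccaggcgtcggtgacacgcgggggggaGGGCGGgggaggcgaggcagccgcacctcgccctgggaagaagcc
The table's window, which also holds the 50 bases after the start, had 4 matches to GGGCGG. At least 1 match stood in 35.7% of the 32851 windows of the table, and 4 or more stood in 5.49%. The GC content of the Dsp window was 73.0%, against a median of 52.7% over all windows. A Grainyhead-like site, AACCNGTT, had 0 matches there and was present in 2.09% of windows, and an AP-1 site, TGANTCA, had 0 matches and was present in 7.81%. Both strands were searched, these motifs did not overlap one another in the Dsp window, and GGGCGG was added after the sequence had been seen.

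The values are intensities as the authors deposited them, on a linear scale. The median of an array was 82 to 96. An intensity of 16 is used below as a mark for the bottom of the scale, since 22.8% to 25.3% of each array's probe sets did not exceed it. Keratinocyte markers matched the labelled skin. Summed intensities of 6 basal keratinocyte genes lay between 267335 and 313204 in lncKO skin, between 266297 and 277408 in miR-205 KO skin and between 264922 and 267993 in wild-type skin, and 0 of the 6 were called in either knockout. Sums of 8 differentiated keratinocyte genes were 995719 to 1099935 in lncKO skin and 979410 to 1153845 in miR-205 KO skin. Wild-type skin had 761405 to 1030943, with overlap. Of these genes Krt10 was called higher and Casp14 lower in each knockout. The log2 fold change of Casp14 was -1.13 in lncKO skin (limma adjusted p = 0.0414) and -1.52 in miR-205 KO skin (adjusted p = 0.0108). Hormone cell genes matched the labelled pituitary, with sums of 2888452 to 3674328 there. In skin they summed to 128 to 197 on 8 arrays and to 2716 on wild-type skin 1, which thereby stood apart. Genes of the Y chromosome went against the label "female" in pituitary: 3 such genes summed to 2828 to 4027 in the 9 pituitary arrays and to 19 to 31 in the 9 skin arrays, so sex and tissue cannot be told apart. The extraction text speaks of ear also beside the pituitary samples.

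Wild-type skin 3 stood apart from the other wild-type skin arrays in hair shaft and root sheath genes. Their summed intensity over 13 measured genes was 277 to 666 in lncKO skin, 378 to 521 in miR-205 KO skin, and 6079, 7914 and 312 in wild-type skin 1, 2 and 3. Other tissue of the ear also differed by group. Cartilage genes summed to 37338 to 70375 in lncKO skin and 45592 to 60583 in miR-205 KO skin, against 11618 to 15294 in wild-type skin, and 6 of 8 were called higher in lncKO skin. Adipocyte genes summed to 160068 to 255870 in lncKO skin and 160709 to 302052 in miR-205 KO skin, against 81743 to 137110 in wild-type skin, and 5 of 7 were called higher in lncKO skin. Sebocyte genes summed to 906807 to 1038750 in lncKO skin and 851573 to 1103494 in miR-205 KO skin, against 497839 to 684659 in wild-type skin, and 1 of 6 was called higher in each knockout. Fibroblast genes summed to 1119409 to 1389165 in lncKO skin and 1202821 to 1265108 in miR-205 KO skin, against 803477 to 917373 in wild-type skin, and 1 of 5 was called higher in each knockout. Fewer cells of a type and less RNA per cell cannot be told apart in such pieces. The part of these tissues in the results on desmosome genes was not tested.

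In skin without MIR205HG, 3 of the 10 desmosome genes rose (Dsc2, Dsg1a and Dsg1c) and 0 fell. Of all 19572 probe sets tested, 6.21% were called higher and 9.17% lower in that comparison. The median log2 fold change was 0.43 over the 10 genes and -0.07 over all genes. In miR-205 KO skin, 4 of the 10 rose (the same 3 genes and Dsg2) and 0 fell, where 6.79% of all probe sets were called higher and 10.0% lower. Here the medians were 0.50 over the 10 genes and -0.07 over all genes. Both comparisons use the same 3 wild-type arrays, so neither is an independent repeat of the other. The 10 genes were chosen with earlier results of these data known, so the counts and medians are a description. Other desmosome genes, among them several that fell, are given below as partners. Calls are at a limma adjusted p under 0.05, adjusted over all 19572 probe sets, and each ± after a log2 fold change is its standard error with n = 3 arrays per group.

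**Figure D1:**
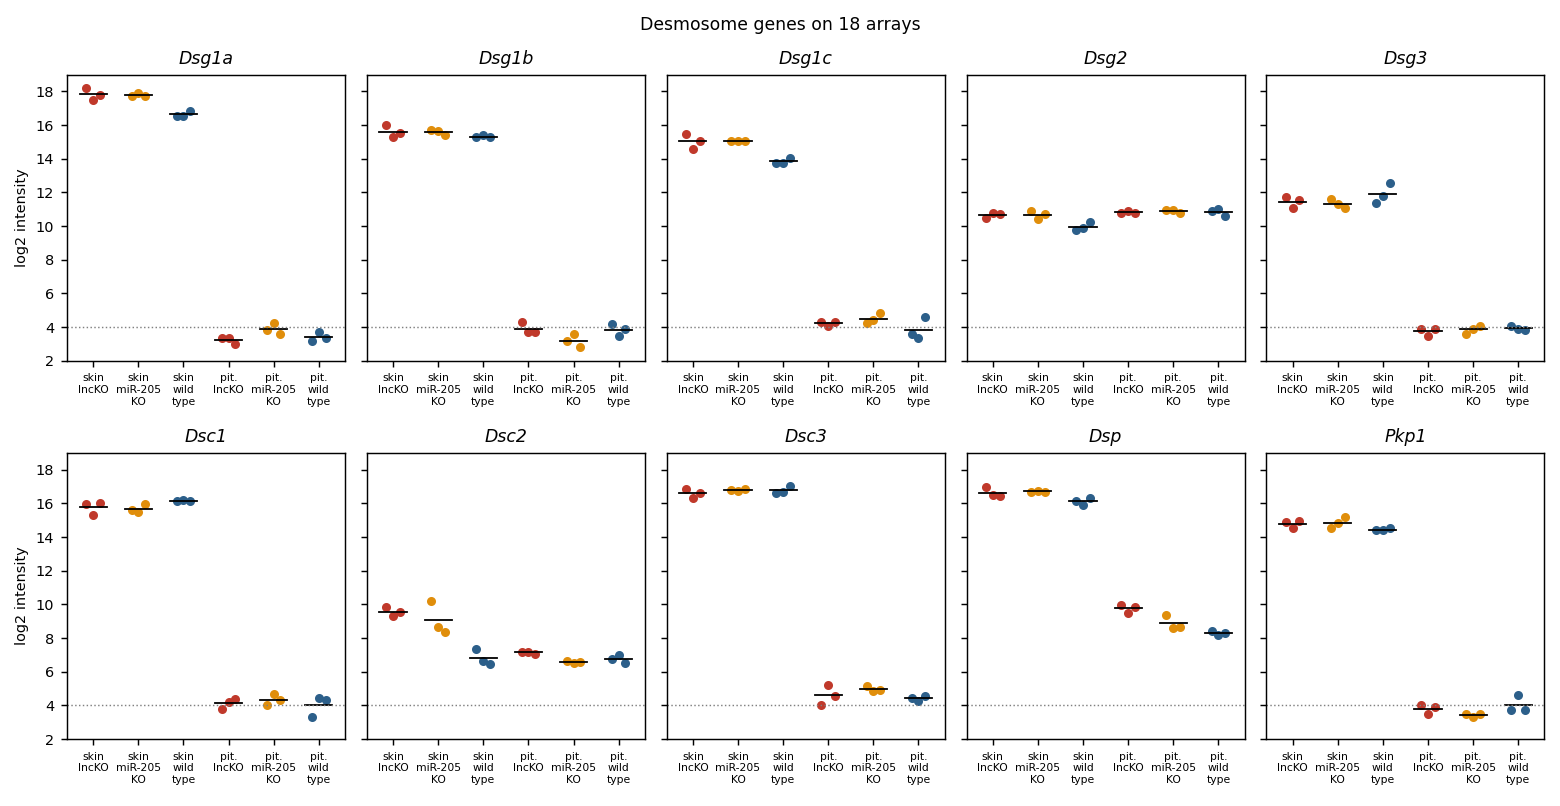
Log2 intensity (vertical axis) of the 10 desmosome genes in each of the 18 arrays, with a point per array, a bar at the mean of each group and a dotted line at an intensity of 16. Levels of Dsg1a, Dsg1c and Dsc2 in both knockout groups of skin lie above wild-type skin, and in pituitary (pit.) only Dsg2, Dsc2 and Dsp stand well above the dotted line.

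Dsg1a encodes a copy of desmoglein 1, the desmoglein of the upper epidermis. Its intensity was 297834, 182280 and 228737 in lncKO skin, 218916, 241742 and 215471 in miR-205 KO skin, and 96290, 94982 and 118282 in wild-type skin. Every knockout array was above every wild-type array. The rise was 1.17 ± 0.23 on the log2 scale in lncKO skin, a fold of 2.26 (limma adjusted p = 0.00551), and 1.13 ± 0.23 in miR-205 KO skin, a fold of 2.19 (adjusted p = 0.00622).

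Dsg1c, another copy of the same gene, had 44866, 24582 and 34370 in lncKO skin, 33474, 33365 and 34086 in miR-205 KO skin, and 13650, 13911 and 16777 in wild-type skin. The groups again did not overlap. It rose by 1.19 ± 0.24 in lncKO skin (adjusted p = 0.00657) and by 1.19 ± 0.24 in miR-205 KO skin (adjusted p = 0.00608). The miR-205 KO arrays lay within a narrow range, and the lncKO arrays were spread around them.

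Dsg1b, the third copy, had 65605, 40289 and 47253 in lncKO skin, 52817, 50920 and 43319 in miR-205 KO skin, and 39394, 43135 and 40007 in wild-type skin. One lncKO array lay inside the wild-type range, and the lowest miR-205 KO array was just above the highest wild-type array. The log2 fold change was 0.29 ± 0.23 in lncKO skin (adjusted p = 0.407) and 0.26 ± 0.23 in miR-205 KO skin (adjusted p = 0.464), with 95% intervals from -0.20 to 0.78 and from -0.23 to 0.75. The 3 copies are closely related in sequence, and cross-hybridisation between their probe sets was not tested. The difference in fold change between copies was not tested either.

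Dsg2, the desmoglein of simple epithelia, had 1402, 1733 and 1704 in lncKO skin, 1922, 1359 and 1704 in miR-205 KO skin, and 882, 938 and 1223 in wild-type skin. All knockout arrays were above the highest wild-type array. The log2 fold change of 0.68 ± 0.23 in lncKO skin missed the threshold (adjusted p = 0.0611), and the rise of 0.71 ± 0.23 in miR-205 KO skin passed it (adjusted p = 0.0480). That call was lost without any 1 of wild-type skin 1 or 2 or miR-205 KO skin 7, 8 or 9, at adjusted p = 0.0520 to 0.166, with a floor at 16 (adjusted p = 0.0527) and in a fit of the groups compared alone (adjusted p = 0.0659). In lncKO skin Dsg2 was called once wild-type skin 3 was left out (0.82, adjusted p = 0.0494).

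Dsg3, the desmoglein of the basal layers and the main autoantigen of pemphigus vulgaris in humans, had 3431, 2165 and 2945 in lncKO skin, 3153, 2509 and 2147 in miR-205 KO skin, and 2633, 3580 and 6150 in wild-type skin. The groups overlapped, and wild-type skin 3 was the highest array. The log2 fold change was -0.47 ± 0.31 in lncKO skin (adjusted p = 0.322) and -0.59 ± 0.31 in miR-205 KO skin (adjusted p = 0.205), neither past the threshold.

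Dsc2, a desmocollin of lower epidermal layers and simple epithelia, showed the largest fold change among the 10 genes in both knockouts. Its intensity was 927, 632 and 749 in lncKO skin, 1197, 401 and 322 in miR-205 KO skin, and 162, 101 and 89 in wild-type skin. The groups did not overlap, although miR-205 KO skin 7 was far above the other arrays of its group. Dsc2 rose by 2.75 ± 0.41 in lncKO skin, a fold of 6.70 (adjusted p = 0.00134), and by 2.24 ± 0.41 in miR-205 KO skin, a fold of 4.73 (adjusted p = 0.00392). Without miR-205 KO skin 7 the rise was 1.66 and still past the threshold.

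Dsc1, the desmocollin of the upper layers, went the other way in its values. It had 64330, 41338 and 66639 in lncKO skin, 50231, 45876 and 63751 in miR-205 KO skin, and 71658, 75602 and 73019 in wild-type skin. Each knockout array was below the lowest wild-type array, but the log2 fold change of -0.39 ± 0.24 in lncKO skin (adjusted p = 0.291) and of -0.48 ± 0.24 in miR-205 KO skin (adjusted p = 0.188) missed the threshold.

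Dsc3, the desmocollin of the basal layers, had 119680, 81170 and 101547 in lncKO skin, 114608, 109169 and 119474 in miR-205 KO skin, and 100842, 103318 and 135307 in wild-type skin. The groups overlapped. Its log2 fold change was -0.17 ± 0.22 in lncKO skin (95% interval -0.65 to 0.31) and 0.03 ± 0.22 in miR-205 KO skin (95% interval -0.45 to 0.51).

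Dsp, the link from the plaque to keratin, had 126872, 92796 and 90286 in lncKO skin, 105805, 110432 and 104937 in miR-205 KO skin, and 71281, 61725 and 80755 in wild-type skin. All knockout arrays were above the wild-type arrays. The log2 fold change was 0.53 ± 0.22 in lncKO skin (adjusted p = 0.119) and 0.60 ± 0.22 in miR-205 KO skin (adjusted p = 0.0778), so neither passed the threshold.

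Pkp1, a plakophilin that strengthens desmosomes of stratified epithelia, had 30146, 23921 and 31152 in lncKO skin, 23892, 29513 and 36582 in miR-205 KO skin, and 21475, 21735 and 23629 in wild-type skin. The lowest knockout arrays were just above the highest wild-type array. Its log2 fold change was 0.34 ± 0.22 in lncKO skin (adjusted p = 0.321) and 0.41 ± 0.22 in miR-205 KO skin (adjusted p = 0.228).

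Counted by separation of the arrays alone, 6 of the 10 genes in lncKO skin had all 3 knockout arrays above all 3 wild-type arrays, and Dsc1 had all 3 below. Such separation held for 13.3% of all probe sets upwards and 18.2% downwards. In miR-205 KO skin 7 of the 10 were separated upwards and Dsc1 downwards, where 14.9% of all probe sets were separated upwards and 20.0% downwards. Separation was counted on the values as deposited only. The highest intensity of an array was 1144106 to 1243875 in knockout skin and 961600 to 988100 in wild-type skin. The part of this difference in the separation of bright genes was not tested. Among the wild-type skin arrays, wild-type skin 3 had few hair transcripts. It also had the highest Dsg1a, Dsg1c, Dsg2, Dsg3, Dsc3, Dsp and Pkp1 of these arrays, and the lowest Dsc2. Dsg1b and Dsc1 were highest on wild-type skin 2. Leaving out wild-type skin 3 keeps the hair-rich wild-type skin 1 and 2, so that fit cannot show the part of hair, which was not tested. Without wild-type skin 3 the rise in lncKO skin was 1.28 for Dsg1a, 1.29 for Dsg1c and 2.57 for Dsc2. The rise in miR-205 KO skin was 1.23, 1.29 and 2.07 for these genes, and all 3 were past the threshold in each knockout. Without wild-type skin 1, the array with hormone transcripts, the rise was 1.13, 1.14 and 3.00 in lncKO skin and 1.09, 1.14 and 2.50 in miR-205 KO skin, again all past the threshold.

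**Figure D2:**
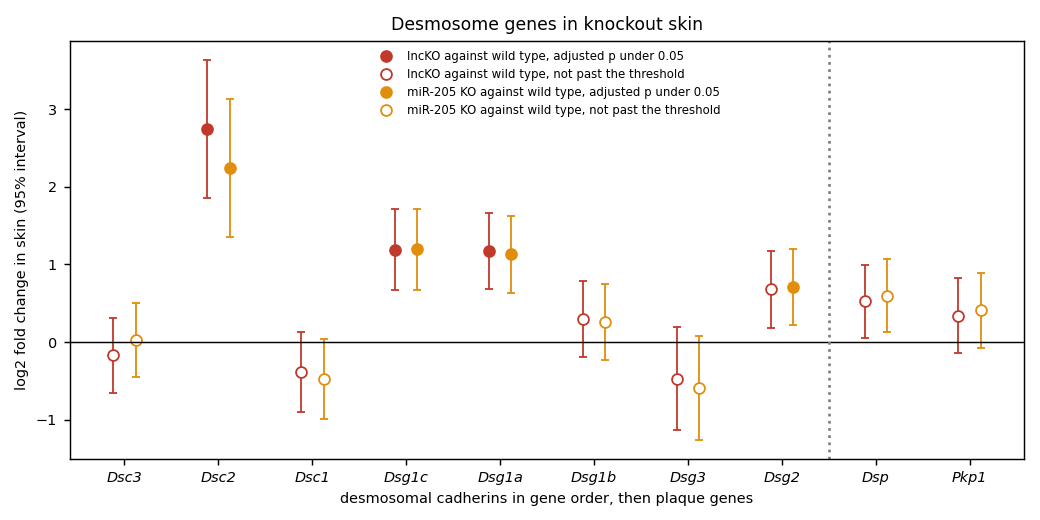
Log2 fold change in skin (vertical axis) of each desmosome gene in lncKO and miR-205 KO skin against wild-type skin, with 95% intervals of the limma fit; filled points passed the threshold on the adjusted p. The cadherin genes stand in their order along the chromosome, with Dsp and Pkp1 to the right of the dotted line. The rises of Dsc2 (2.75 and 2.24) and of Dsg1c and Dsg1a (1.13 to 1.19) stand beside neighbours, Dsc3 and Dsc1, whose intervals include 0.

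The direct comparison of lncKO with miR-205 KO skin called 0 of the 10 genes. Limma called 0% of all 19572 probe sets in that comparison, in either direction, with 637 at an unadjusted p under 0.05 and a lowest adjusted p of 0.290. When the spread was estimated from all 18 arrays the lowest adjusted p was 0.00279. Differences between the knockouts ran from -0.20 for Dsc3 to 0.50 for Dsc2, and each of the 10 had an adjusted p of 1. The 95% interval for Dsc2 ran from -0.39 to 1.39 and that for Dsg1a from -0.45 to 0.54. Differences of a size inside these intervals therefore remain possible.

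All 8 cadherin members are neighbours on mouse chromosome 18, in the order Dsc3, Dsc2, Dsc1, Dsg1c, Dsg1a, Dsg1b, Dsg4, Dsg3 and Dsg2, while Dsp lies on chromosome 13 and Pkp1 on chromosome 1. The span holds 9 protein-coding genes in the RefSeq table, and all are desmosomal cadherins. Calls did not run in one block along it. Dsc2 was called between Dsc3 and Dsc1, which were not, and Dsg1c and Dsg1a were called beside Dsg1b, which was not. The remaining gene of the span, Dsg4, encodes the desmoglein of the hair shaft. It had 14, 40 and 17 in lncKO skin, 17, 20 and 16 in miR-205 KO skin, and 43, 85 and 16 in wild-type skin, with the value of 16 in wild-type skin 3, and was not called (log2 fold change -0.87 ± 0.50 in lncKO skin and -1.14 ± 0.50 in miR-205 KO skin). Without wild-type skin 3 it was called lower in both, at -1.51 (adjusted p = 0.0340) and -1.78 (adjusted p = 0.0162). That fit compares with wild-type skin 1 and 2, the arrays rich in hair transcripts. Apart from 1 lncKO array at 40, the knockout values stood near the bottom of the scale. The part of hair in these calls was not tested.

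Partners of the 10 genes in the plaque and on the cell surface were called in both directions. Among 9 further desmosome and cornified desmosome genes, lncKO skin had 1 called higher and 5 called lower, and miR-205 KO skin had 1 called higher and 4 called lower. Over all probe sets 6.21% were called higher and 9.17% lower in lncKO skin, and 6.79% and 10.0% in miR-205 KO skin. The same shares apply to the skin counts of the partner lists below. The median log2 fold change of the 9 genes was -0.87 in lncKO skin, the value of Dsg4. In miR-205 KO skin it was -0.81, the value of Pkp2. Most knockout values of these genes stood near the bottom of the scale.

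Jup encodes plakoglobin, which binds the cadherin tails. It had 13592, 16851 and 19432 in lncKO skin, 13160, 17278 and 22832 in miR-205 KO skin, and 30269, 51597 and 41972 in wild-type skin, with no overlap. Jup fell, with a log2 fold change of -1.29 ± 0.27 in lncKO skin (adjusted p = 0.00822) and -1.22 ± 0.27 in miR-205 KO skin (adjusted p = 0.0101). The second call was lost without miR-205 KO skin 7 (adjusted p = 0.0521).

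Cdsn encodes corneodesmosin, the surface protein of desmosomes in the cornified layer. Its intensity was 5047, 7547 and 7130 in lncKO skin, 4407, 7371 and 7864 in miR-205 KO skin, and 24463, 31949 and 25753 in wild-type skin. Cdsn fell by 2.07 ± 0.27 in lncKO skin (adjusted p = 5.23e-04) and by 2.10 ± 0.27 in miR-205 KO skin (adjusted p = 5.08e-04), the largest falls of this list in each knockout. Pkp3, a plakophilin found through all epidermal layers, had 136, 138 and 216 in lncKO skin, 161, 156 and 118 in miR-205 KO skin, and 347, 366 and 320 in wild-type skin. It fell by 1.11 ± 0.24 in lncKO skin and by 1.26 ± 0.24 in miR-205 KO skin.

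Evpl, which encodes the desmosome-bound cornified envelope protein envoplakin, was the 1 gene of this list that rose. It had 1276, 1159 and 1504 in lncKO skin, 1418, 1237 and 1594 in miR-205 KO skin, and 387, 697 and 425 in wild-type skin, and the rise was 1.43 ± 0.25 in lncKO skin and 1.54 ± 0.25 in miR-205 KO skin. Perp, a membrane protein needed for desmosome assembly, fell by 0.69 ± 0.21 in lncKO skin (adjusted p = 0.0431) and by 0.67 ± 0.21 in miR-205 KO skin (adjusted p = 0.0485). Both Perp calls were lost whenever any 1 of the arrays compared was left out. Pkp2, the plakophilin of heart and simple epithelia, had 17, 12 and 22 in lncKO skin and 16, 15 and 23 in miR-205 KO skin, against 42, 27 and 26 in wild-type skin, with knockout values at the bottom of the scale. Its log2 fold change was -0.91 ± 0.29 in lncKO skin (adjusted p = 0.0487) and -0.81 ± 0.29 in miR-205 KO skin (adjusted p = 0.0707). The call in lncKO skin was lost with a floor at 16 (-0.77, adjusted p = 0.107), on quantile normalization, on median centring, in a fit of the groups compared alone and without any 1 of 5 of the 6 arrays. Pkp4 and Ppl were not called in either knockout.

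**Figure D3:**
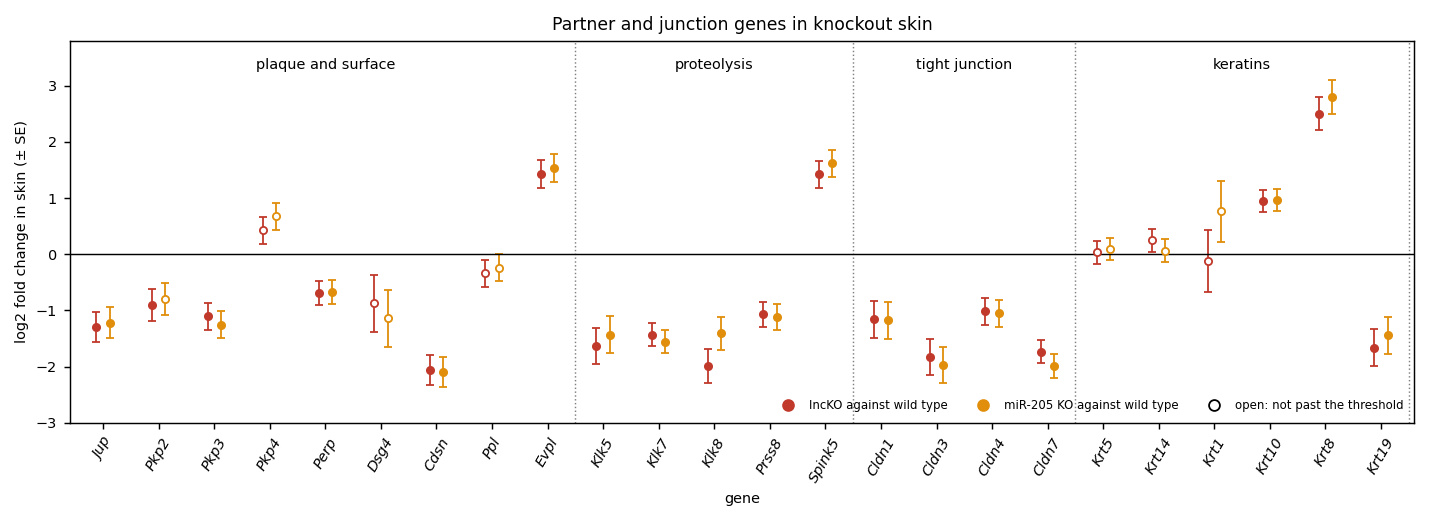
Log2 fold change in skin (vertical axis, ± standard error, n = 3 arrays per group) of partner and junction genes in lncKO and miR-205 KO skin against wild-type skin; open points missed the threshold. Jup, Pkp3, Cdsn, Klk5, Klk7 and Klk8 lie below 0, and Evpl, Spink5 and Krt8 lie above it.

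Keratin genes, whose products anchor to desmoplakin, were split. Of 12 measured, 3 rose and 1 fell in each knockout. Krt10, the keratin of the suprabasal layers, had 678979, 619688 and 654575 in lncKO skin, 621186, 620055 and 753341 in miR-205 KO skin, and 345918, 314730 and 355555 in wild-type skin. It rose by 0.94 ± 0.20 in lncKO skin and 0.97 ± 0.20 in miR-205 KO skin, and on quantile normalization the values were 0.39 (adjusted p = 0.209) and 0.43 (adjusted p = 0.160), which missed the threshold. Krt8, a keratin of simple epithelia, rose by 2.50 ± 0.30 in lncKO skin and 2.80 ± 0.30 in miR-205 KO skin, and Krt77, a keratin of sweat gland ducts in humans, rose by 2.71 ± 0.55 and 2.90 ± 0.55. Krt19, the 1 keratin gene called lower, had 12, 8 and 8 in lncKO skin and 17, 9 and 8 in miR-205 KO skin, against 22, 43 and 26 in wild-type skin. Its log2 fold change was -1.67 ± 0.33 in lncKO skin and -1.44 ± 0.33 in miR-205 KO skin, from values at the bottom of the scale, and both calls were lost with a floor at 16 (-0.86, adjusted p = 0.0644, and -0.83, adjusted p = 0.0683). The basal pair Krt5 and Krt14 had log2 fold changes of 0.03 and 0.25 in lncKO skin and 0.09 and 0.06 in miR-205 KO skin, all short of the threshold. Krt1, the partner of Krt10, had 28295, 32398 and 46334 in lncKO skin, 67204, 69021 and 57179 in miR-205 KO skin, and 126241, 27164 and 15850 in wild-type skin, a spread that held both knockouts. Its log2 fold change was -0.12 ± 0.55 in lncKO skin and 0.76 ± 0.55 in miR-205 KO skin, neither called. Without wild-type skin 1, the highest array, the values were 0.75 (adjusted p = 0.116) and 1.63 (adjusted p = 0.00544), the second past the threshold.

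Among genes that cut desmosomes apart or protect them, 1 of 11 rose and 4 fell in each knockout. Klk7, a kallikrein protease that degrades corneodesmosin in the outermost skin, had 32235, 24138 and 29325 in lncKO skin, 23957, 27028 and 27425 in miR-205 KO skin, and 77397, 81006 and 72280 in wild-type skin. It fell by 1.44 ± 0.20 in lncKO skin (adjusted p = 9.60e-04) and by 1.56 ± 0.20 in miR-205 KO skin (adjusted p = 6.01e-04). The kallikrein genes Klk5 and Klk8 fell by 1.63 and 1.99 in lncKO skin and by 1.44 and 1.41 in miR-205 KO skin, where the Klk5 call was lost with a floor at 16 (adjusted p = 0.0602). The kallikrein genes Klk6 and Klk14 were not called. Their log2 fold changes were 0.45 ± 0.41 and 0.03 ± 0.24 in lncKO skin, and 0.27 ± 0.41 and -0.01 ± 0.24 in miR-205 KO skin. Prss8, a membrane-anchored protease, fell by 1.07 in lncKO skin and by 1.12 in miR-205 KO skin. Spink5, which encodes the kallikrein inhibitor LEKTI, rose, with 138753, 74266 and 93033 in lncKO skin, 106059, 122324 and 110712 in miR-205 KO skin, and 38471, 35057 and 36992 in wild-type skin. The rise was 1.42 ± 0.24 in lncKO skin (adjusted p = 0.00267) and 1.62 ± 0.24 in miR-205 KO skin (adjusted p = 0.00126).

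Other junctions differed in their counts. Of 9 adherens junction genes measured, 0 were called in either knockout, and Cdh1, the classical cadherin of epithelia, had -0.51 ± 0.26 in lncKO skin and -0.48 ± 0.26 in miR-205 KO skin. Of 8 tight junction genes, 4 fell in lncKO skin and 5 in miR-205 KO skin and 0 rose in either. Cldn1 fell in both knockouts and F11r in miR-205 KO skin. The claudin gene Cldn4 had 834 to 1124 in lncKO skin, 758 to 1140 in miR-205 KO skin and 1821 to 2497 in wild-type skin. Its log2 fold change was -1.02 ± 0.24 in lncKO skin, a call lost without wild-type skin 2 or lncKO skin 5. In miR-205 KO skin it was -1.05 ± 0.24, a call lost without miR-205 KO skin 7. The claudin gene Cldn3 had a log2 fold change of -1.83 ± 0.32 in lncKO skin and -1.97 ± 0.32 in miR-205 KO skin. Its values were 16 to 30 in lncKO skin and 15 to 25 in miR-205 KO skin, at or near the bottom of the scale. Wild-type skin had 62 to 124. Cldn7, another claudin gene, had 11, 10 and 8 in lncKO skin and 8 on each miR-205 KO array, against 28, 35 and 33 in wild-type skin. Its knockout values were thus at the bottom of the scale, and with a floor at 16 its log2 fold change was -0.99 and still called in each knockout. Of 7 hemidesmosome genes, the laminin gene Lama3 fell in miR-205 KO skin, and Itgb4, an integrin gene of the basal attachment plaque, was called lower in both knockouts. The Itgb4 call in lncKO skin (-1.08 ± 0.28, adjusted p = 0.0218) was lost with a floor at 16, in a fit of the groups compared alone, and without wild-type skin 2 or lncKO skin 4 or 5. That in miR-205 KO skin (-0.88 ± 0.28, adjusted p = 0.0479) was lost on quantile normalization, on median centring, with a floor at 16, and without wild-type skin 2 or 3 or any 1 of the miR-205 KO arrays. Of 10 transcription factor genes known to act on junction genes, Grhl2, a regulator of epithelial junctions, fell by 1.75 ± 0.26 in lncKO skin and by 1.77 ± 0.26 in miR-205 KO skin, and none of the others was called.

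In pituitary, Dsp rose without MIR205HG and 0 of the other 9 desmosome genes were called. Limma called 0.342% of all probe sets higher and 0.358% lower in that comparison. Dsp had 1015, 719 and 906 in lncKO pituitary, 664, 382 and 402 in miR-205 KO pituitary, and 345, 293 and 319 in wild-type pituitary. No group overlapped another, with miR-205 KO pituitary 16 closest to the lncKO arrays. The rise in lncKO pituitary was 1.45 ± 0.23, a fold of 2.74 (adjusted p = 0.0155). Its size was 1.34 to 1.59 with any 1 of the 6 arrays left out. The call was lost without wild-type pituitary 11 or 12 or lncKO pituitary 13 or 15, at adjusted p = 0.0525 to 0.0775. With a floor at 16 the call was also lost, at the same log2 fold change of 1.45 (limma adjusted p = 0.0912).

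In miR-205 KO pituitary 0 of the 10 genes were called, where limma called 0.0409% of all probe sets higher and 0.0664% lower. Dsp had a log2 fold change of 0.55 ± 0.23 (95% interval 0.06 to 1.05, adjusted p = 0.631). Between lncKO and miR-205 KO pituitary 0 of the 10 were called either, against 0.138% of all probe sets higher and 0.153% lower, and the log2 difference was 0.90 ± 0.23 for Dsp (adjusted p = 0.140).

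Dsg2 and Dsc2 were the other 2 members above the bottom of the scale in pituitary. Dsg2 had 1760, 1919 and 1780 in lncKO pituitary, 1963, 1999 and 1773 in miR-205 KO pituitary, and 1939, 2059 and 1578 in wild-type pituitary. The groups overlapped, with log2 fold changes of -0.02 ± 0.17 in lncKO pituitary (95% interval -0.38 to 0.34) and 0.05 ± 0.17 in miR-205 KO pituitary. Dsc2 had 144, 146 and 135 in lncKO pituitary, 98, 93 and 94 in miR-205 KO pituitary, and 109, 129 and 92 in wild-type pituitary. All lncKO arrays were above the wild-type arrays, but the log2 fold change of 0.38 ± 0.17 missed the threshold (adjusted p = 0.386), and so did the difference of 0.58 ± 0.17 from miR-205 KO pituitary (adjusted p = 0.207).

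The 7 other members lay between 7 and 37 on all pituitary arrays. Dsg1a and Pkp1 were at or below 16 on 8 of the 9 arrays, Dsg1b and Dsg3 on 7, Dsc1 on 3, Dsg1c on 2 and Dsc3 on 1. Differences between such values are not read as changes. Keratinocyte genes were likewise near the bottom of the scale: 8 differentiated keratinocyte genes summed to 156 to 165 in lncKO pituitary and 121 to 199 in wild-type pituitary, and Krt5 lay at 10, 11 and 14 in lncKO pituitary and at 8, 12 and 10 in wild-type pituitary.

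**Figure D4:**
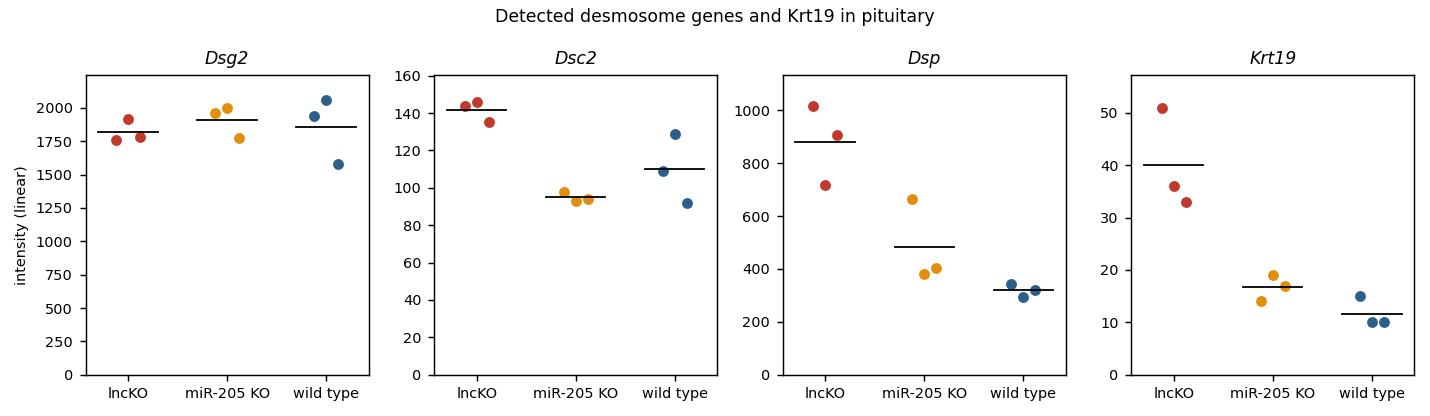
Intensity (vertical axis, linear scale from 0) of Dsg2, Dsc2, Dsp and the keratin gene Krt19 in each pituitary array, with a bar at the mean of each group of 3. Dsp lies at 719 to 1015 in lncKO pituitary and at 293 to 345 in wild-type pituitary, while the groups overlap for Dsg2.

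Of the lists of partner genes, the 1 gene called in lncKO pituitary was Krt19, a keratin of simple epithelia. It had 51, 36 and 33 in lncKO pituitary, 14, 19 and 17 in miR-205 KO pituitary, and 15, 10 and 10 in wild-type pituitary, so the groups compared with lncKO did not overlap but the lower values stood at the bottom of the scale. Its log2 difference from miR-205 KO pituitary was 1.25 ± 0.23 (adjusted p = 0.0486). Its log2 fold change was 1.78 ± 0.23 against wild type (adjusted p = 0.00840), which fell short of the threshold when all values were floored at 16 (1.30, adjusted p = 0.0586) and without wild-type pituitary 12. Jup had 4356, 4426 and 4690 in lncKO pituitary and 5413, 2792 and 4164 in wild-type pituitary, with overlap. Genes of pituitary stem and folliculostellate cells, epithelial cells of the gland, were measured as well: 1 of 9 was called higher in lncKO pituitary, the stem cell factor gene Sox2 (log2 fold change 1.07 ± 0.18, adjusted p = 0.0204). Sox2 had 4036, 3712 and 2901 in lncKO pituitary, 2199, 2693 and 2179 in miR-205 KO pituitary, and 1614, 1605 and 1815 in wild-type pituitary. The 9 genes summed to 50087 to 54929 in lncKO pituitary, 46315 to 54713 in miR-205 KO pituitary and 43177 to 49557 in wild-type pituitary. The 3 Y-linked genes summed to 2828 to 3232 in lncKO pituitary, 3369 to 3780 in miR-205 KO pituitary and 3766 to 4027 in wild-type pituitary. Of them, Eif2s3y was called lower in lncKO pituitary (-1.08 ± 0.19, limma adjusted p = 0.0283). Kdm5d (-0.04 ± 0.23) and Uty (0.01 ± 0.16) were not called there. The part of these cells and of the Eif2s3y difference in the level of Dsp was not tested.

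Between the tissues of wild-type mice, 8 of the 10 genes were lower in pituitary, Dsg2 was higher and Dsc2 was not called. Limma called 26.4% of all probe sets lower and 25.7% higher there. For the 7 members at the bottom of the scale the pituitary values bound the level rather than measure it. The lowest wild-type skin array was 7306 times the highest wild-type pituitary array for Dsg1a, 4202 times for Dsc3, 3257 times for Dsc1 and 2189 times for Dsg1b, and 155 times for Dsg3, the member with the smallest such ratio among the 7. Dsp, which was measured above the bottom in both tissues, had a log2 difference of -7.80 ± 0.22 (adjusted p = 4.32e-17).

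Dsg2 had 1939, 2059 and 1578 in wild-type pituitary and 882, 938 and 1223 in wild-type skin, a difference of 0.88 ± 0.19 (adjusted p = 5.30e-04). Dsc2 had 109, 129 and 92 in wild-type pituitary and 162, 101 and 89 in wild-type skin, with overlap and a 95% interval of the log2 difference from -0.77 to 0.65. Among the partner genes Pkp2 and Pkp4 were also higher in pituitary, by 2.20 ± 0.26 and 1.99 ± 0.21, and Jup had a log2 difference of -3.34 ± 0.26. Sex and tissue cannot be told apart in these differences, given the Y-linked transcripts in pituitary.

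The knockout effects were set against each other between tissues with an interaction term. For either knockout, sex and tissue cannot be told apart in this term, given the Y-linked transcripts in pituitary. For lncKO, 2 of the 10 genes were called with a lower effect in pituitary than in skin and 0 with a higher one, where 3.37% of all probe sets were called lower and 5.88% higher. The difference was -2.37 ± 0.48 for Dsc2 (adjusted p = 0.00474) and -1.36 ± 0.31 for Dsg1a (adjusted p = 0.0101). Dsg1a has pituitary values of 8 to 10 in lncKO and 9 to 13 in wild type, at the bottom of the scale. On quantile normalization its difference was -0.97 (adjusted p = 0.0553). For Dsp the difference was 0.93 ± 0.31 (adjusted p = 0.0671), so the larger rise in lncKO pituitary was not shown to differ from that in skin, although it was called on quantile normalization (1.20, adjusted p = 0.0160), with a variance trend and robust moderation (adjusted p = 0.0385) and without lncKO skin 4 (adjusted p = 0.0449).

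For miR-205 KO, Dsc2 was the 1 gene of the 10 with a called difference between tissues, -2.44 ± 0.48 (adjusted p = 0.00363), against 3.69% of all probe sets lower and 6.26% higher. Pkp1 (-1.01 ± 0.34, adjusted p = 0.0653) and Dsg1a (-0.65 ± 0.31, adjusted p = 0.194) rest on pituitary values at the bottom of the scale and missed the threshold. Dsp had -0.04 ± 0.31.

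How the 10 genes varied among the 9 skin arrays is given as a description, over all 3 genotypes and 10861 probe sets, since knockout and wild-type arrays share the difference that the comparisons above used. Dsg1a was most like Dsg1c, with Pearson's r = 0.994, and next like Lamp2, a lysosomal membrane gene (0.992). Dsc2 was most like Ube2k, a ubiquitin-conjugating enzyme gene (0.985), and Dsp was most like Postn, the periostin gene (0.968). Pkp1 was most like Atxn7l1 (0.983), Dsg2 like the DNA ligase gene Lig1 (0.963) and Dsg3 like Crebrf (0.978). Dsg1b was most like Cep70 (0.949), Dsc3 like Lyrm1 (0.940) and Dsc1 like Topbp1 (0.937). Other than the pair Dsg1a and Dsg1c, no member had another member among its 3 closest genes.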

How the data were processed

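The authors deposited 1 intensity per probe set and array, in whole numbers on a linear scale. Not given in the sources used here are the background correction, summarisation and normalization behind it. It held 22206 probe sets, of which 19572 carried 1 gene symbol in the platform annotation and 2634 none. All 19572 matched a RefSeq gene table (GRCm38.p6). Any pair of arrays shared at most 5.49% of its values exactly, so none was treated as a repeat. The log2 of each intensity was used with no pseudocount (the lowest was 4) and no further normalization. Each comparison was a two-sided test with limma 3.58.1 (R 4.3.3, lmFit and eBayes), with Benjamini-Hochberg adjustment over 19572 probe sets and a threshold of 0.05. The 9 arrays of a tissue shared 1 fit (6 residual degrees of freedom), and tissues and interactions used all 18 (12 residual degrees of freedom). The number of arrays limits the precision, and the median standard error was 0.26 in skin and 0.21 in pituitary. The alternatives were quantile normalization, median centring, a floor at 16, leaving out probe sets with a mean log2 intensity under 6, a variance trend with robust moderation, other sets of arrays or probe sets in the fit, and leaving out each array. The procedure was tested on simulated data. Named were all 10 members and up to 4 called genes per partner list by smallest p. A fixed set was named as well (Jup, Pkp2, Pkp3, Perp, Dsg4, Cdsn, Krt5, Krt14, Krt1, Krt10, Cdh1). Pkp4, Ppl, Sox2, Eif2s3y, Kdm5d, Uty, Klk6, Klk14 and Casp14 complete counts of 5 or fewer or were singled out after their values were seen. The members and lists were chosen with earlier results of these data known. Sequences are from RefSeq tables. Protein sequences were not used here.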

Additional observations from a re-analysis of the deposited data

Results flagged for a closer look

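A difference in the knockout effect between pituitary and skin was called for 2 of the 10 genes by the interaction term of limma's fit of all 18 arrays. Over all probe sets 3.37% were called lower and 5.88% higher for lncKO, and 3.69% and 6.26% for miR-205 KO. For Dsc2 the lncKO effect was lower in pituitary than in skin by a log2 difference of -2.37 ± 0.48, and the miR-205 KO effect by -2.44 ± 0.48. The Dsc2 effect itself was 0.38 in lncKO pituitary and 2.75 in lncKO skin, and -0.20 in miR-205 KO pituitary and 2.24 in miR-205 KO skin. For Dsg1a the lncKO effect differed by -1.36 ± 0.31, with pituitary values at the bottom of the scale in both groups. On quantile normalization the Dsg1a difference was -0.97 and missed the threshold (limma adjusted p = 0.0553). The same wild-type arrays serve both knockouts of a tissue. Sex and tissue cannot be told apart in these differences, given the Y-linked transcripts in pituitary.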

How the results depend on the processing

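No called desmosome gene changed its direction under any alternative or with any array left out, in any of the 9 comparisons. The number of genes called in lncKO pituitary was 0 with a floor at 16 and ranged between 0 and 1 with an array left out, whereas with all arrays Dsp alone was called. The number called for the difference of the miR-205 KO effect between tissues was 2 with median centring (Dsc2 and Pkp1), 2 with a floor at 16 (Dsc2 and Dsg1a), and ranged between 1 and 2 with an array left out. All other counts of called members stayed within 1.5 times the reported count. The rises of Dsg1a in skin were 0.84 in lncKO and 0.79 in miR-205 KO on quantile normalization, still past the threshold. Dsg2 in lncKO skin passed it on quantile normalization (0.83), on median centring (0.77, adjusted p = 0.0450) and in the fit of all 18 arrays (adjusted p = 0.0152), while its call in miR-205 KO skin was lost with a floor at 16 (adjusted p = 0.0527) and in the fit of the groups compared (adjusted p = 0.0659). Dsp in miR-205 KO skin passed it with a variance trend and robust moderation (adjusted p = 0.0361). Dsg1c in the lncKO difference between tissues passed it with a floor at 16 (-1.14, adjusted p = 0.0357). Median centring moved the median interaction over all genes to -0.05 for lncKO and -0.06 for miR-205 KO, against 0.08 for each as deposited. The causes of these shifts were not tested. No paired analysis was possible because the sample numbers in the labels never recur between groups. Signal at the bottom of the scale limits 7 members in pituitary.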
